A study of Mus musculus with 2 samples.

Results

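The genes described here are those of glycolysis, gluconeogenesis and the hypoxia response, measured in 2 liver tumour samples of mice treated with DEN (diethylnitrosamine, a compound that causes liver cancer). A list of 35 gene symbols was matched to the probe sets that name exactly 1 gene in the platform annotation, and 31 of the 35 had such a probe set, out of 19938 genes in all. One hepatocellular carcinoma sample came from an HLF-deficient mouse and 1 from a WT mouse, and both mice had received DEN. HLF (hepatic leukemia factor) is a transcription factor of the PAR bZIP family. The type of Hlf allele, the strain, the sex, the age and the DEN dose of the mice are not given in the sources used here, nor is whether a sample held 1 nodule or several.

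Total RNA of each tumour was labelled as cDNA and hybridised to 1 Affymetrix whole-transcript array, so there are 1 array for the HLF-deficient tumour and 1 for the WT tumour. Values are RMA expression levels on a log2 scale, and every difference is HLF-deficient minus WT. There are no replicates, so a p-value or SD between tumours cannot be computed, and the small number of arrays is what limits precision. A fixed rule of size was used instead, a log2 difference of at least 1 (2-fold), with 1.5-fold (a log2 difference of 0.58) as a second, looser rule. A gene was compared if it reached a floor of 2.98, below which 95% of the values of chemoreceptor probe sets lay, on at least 1 array. All 31 genes entered, and 29 were at or above the floor in both tumours. Where a gene had 2 bright probe sets, their differences pointed to a technical SD of 0.23 per probe set over 696 genes. This leaves out the spread between mice and between tumours, and any error of RNA, labelling or array that both probe sets share. Some pairs hold identical values, as for Pgk1, which lowers the figure. In bulk tissue, fewer cells of a type and less RNA per cell cannot be told apart. Hlf itself had a level of 3.79 in the HLF-deficient tumour and 5.13 in the WT tumour, a direction that goes with the labels. The labelled tissue expressed its defining genes: the 8 hepatocyte markers with a probe set differed by between -0.15 and 0.07.

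Glycolysis splits glucose into pyruvate in the cytosol, and gluconeogenesis runs much of the same path backwards through a few enzymes of its own, which lets the liver release glucose into blood. Hepatocytes use particular isozymes for the controlled steps, such as the transporter GLUT2 and the pyruvate kinase of the Pklr gene, while many tumours and other tissues use GLUT1 and the Pkm gene. When oxygen is scarce, prolyl hydroxylases no longer mark HIF-1 alpha and HIF-2 alpha for degradation, and HIF then raises genes of glucose uptake, glycolysis, collagen hydroxylation and vessel tone.

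In the HLF-deficient tumour 3 of the 31 genes were higher by 2-fold or more, against 1.5% of the 14575 genes compared, and none was lower by 2-fold, against 0.364% of all genes. By the looser rule 12 of the 31 were higher, where 6.37% of all genes were, and 0 were lower, where 3.11% of all genes were. This list and the further lists below were chosen with earlier results of these data known, so the shares are a description only. The 3 genes beyond 2-fold were Adm, P4ha1 and Egln3. The other 9 beyond 1.5-fold were G6pc, Pck1, Pfkp, Pfkfb3, Slc2a1, Ndrg1, Aldoa, Pfkl and P4ha2. The median difference of the 31 genes was 0.33, beside 0.07 for all genes compared. Positive values were found for 25 of the 31 (80.6%) and for 58.2% of all genes. The remaining 19 genes lay within 1.5-fold.

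**Figure D1:**
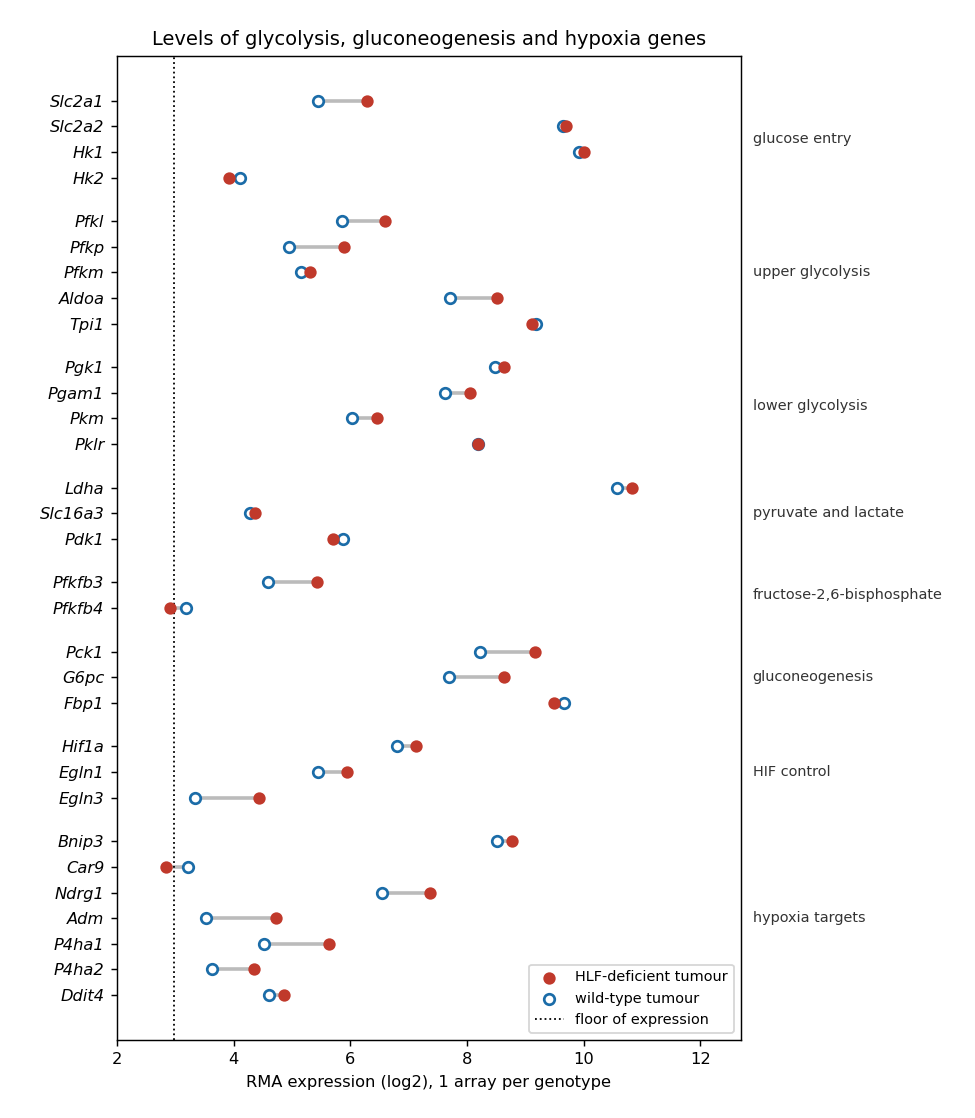
RMA expression level (log2, horizontal axis) of each of the 31 genes in the HLF-deficient tumour (filled red points) and the WT tumour (open blue points), 1 array each, grouped by role, with the floor of 2.98 as a dotted line. Filled points lie clearly to the right of open points for genes such as Adm, P4ha1, Egln3, Pck1 and G6pc, while Slc2a2, Pklr and Tpi1 nearly coincide, and the filled points of Car9 and Pfkfb4 lie left of the floor.

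The hypoxia targets held 2 of the 3 largest differences. Adm, which encodes the vasodilator peptide adrenomedullin, had a level of 4.72 in the HLF-deficient tumour and 3.53 in the WT tumour. This is a difference of 1.19, or 2.28-fold, and 99.1% of all genes had a lower one. The WT value of Adm, like that of P4ha2 below, was not far above the floor of 2.98. P4ha1, the catalytic subunit of a collagen prolyl 4-hydroxylase of the endoplasmic reticulum, had levels of 5.64 in the HLF-deficient tumour and 4.53 in the WT tumour. It was 2.16-fold higher, with a difference of 1.11. Its relative P4ha2, which has the same role, was at 4.34 in the HLF-deficient tumour and 3.63 in the WT tumour, a difference of 0.71, so both catalytic subunits on the list were beyond 1.5-fold. Ndrg1, a cytoplasmic protein induced by hypoxia and by differentiation, was at 7.37 in the HLF-deficient tumour and 6.54 in the WT tumour, or 1.78-fold higher.

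The remaining 3 hypoxia targets did not follow. Bnip3, a mitochondrial protein that promotes mitophagy, was at 8.77 in the HLF-deficient tumour and 8.51 in the WT tumour. Its 2 probe sets gave differences of 0.25 and 0.11, both small. Ddit4, an inhibitor of mTORC1 signalling also known as REDD1, was at 4.86 in the HLF-deficient tumour and 4.61 in the WT tumour, a difference of 0.25. Car9, a carbonic anhydrase of the cell surface and a widely used marker of hypoxic tumour cells, had a level of 2.83 in the HLF-deficient tumour, which is under the floor, and stood at 3.21 in the WT tumour. With the first value set to the floor, its difference was -0.23, about the technical SD of 0.23 per probe set. Compared genes within 0.5 log2 units of its level had a median of -0.20. No direction is therefore given for Car9. The 7 hypoxia targets had a median of 0.71, with 4 of 7 beyond 1.5-fold, all higher.

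Among the genes that control HIF, the prolyl hydroxylase Egln3 (PHD3) differed most. Egln3 had a level of 4.43 in the HLF-deficient tumour and 3.34 in the WT tumour, which is 2.13-fold higher, with a difference of 1.09. Its WT value was not far above the floor of 2.98. Egln3 is itself a HIF target and acts in feedback on HIF. Egln1 (PHD2), the main oxygen sensor of the family, was at 5.94 in the HLF-deficient tumour and 5.45 in the WT tumour, a difference of 0.49. Hif1a, the oxygen-regulated subunit, whose control is mostly on the protein, was at 7.13 in the HLF-deficient tumour and 6.80 in the WT tumour. Its difference of 0.33 was the median of the 31 genes.

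The proximal promoters of the 3 genes beyond 2-fold are shown because HIF binds a short core, ACGTG or GCGTG, and such cores lie in all 3. They run from 250 bases before to 50 bases after the start of the gene, are taken from RefSeq (GRCm38.p6) and are written 5′ to 3′ on the strand of the gene. Capitals mark every match to a core on either strand. The Adm window is chr7:110627407-110627706, plus strand, and holds 2 matches on the opposite strand, whose first bases lie 90 and 54 bases before the start. The P4ha1 window is chr10:59323046-59323345, plus strand, and holds 2 GCGTG matches, 163 and 126 bases before the start, and 1 ACGTG match on the opposite strand 16 bases before it. The Egln3 window is chr12:54203825-54204124, minus strand, and holds 1 ACGTG match 229 bases before the start.
Adm: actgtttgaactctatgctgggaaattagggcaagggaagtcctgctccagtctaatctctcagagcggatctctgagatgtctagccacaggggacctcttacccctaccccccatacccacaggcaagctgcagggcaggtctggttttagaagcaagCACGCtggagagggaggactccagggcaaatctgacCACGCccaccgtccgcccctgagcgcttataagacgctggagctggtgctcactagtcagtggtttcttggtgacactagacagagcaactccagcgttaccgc
P4ha1: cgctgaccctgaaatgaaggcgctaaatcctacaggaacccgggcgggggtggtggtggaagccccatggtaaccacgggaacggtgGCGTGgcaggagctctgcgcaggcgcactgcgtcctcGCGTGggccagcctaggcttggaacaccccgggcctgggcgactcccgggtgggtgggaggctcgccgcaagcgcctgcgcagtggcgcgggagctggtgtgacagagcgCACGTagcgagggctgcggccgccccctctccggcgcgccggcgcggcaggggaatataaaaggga
Egln3: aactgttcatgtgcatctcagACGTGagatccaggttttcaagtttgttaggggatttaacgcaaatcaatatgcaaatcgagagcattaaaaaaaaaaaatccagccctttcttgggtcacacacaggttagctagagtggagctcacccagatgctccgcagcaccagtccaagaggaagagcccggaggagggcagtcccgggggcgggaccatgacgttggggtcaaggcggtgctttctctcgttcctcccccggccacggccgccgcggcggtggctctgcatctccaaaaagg

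A match to these letters is a description of the window and not a shown binding site. The promoter table held 34 of the 35 listed genes, with 50 windows. A core of either form lay in 34 of these 50 windows (68.0%), against 43.8% of all 32851 windows of the same length. Counted by gene, 27 of 34 (79.4%) had a core in at least 1 window, against 63.0% of the compared genes with a window. The core ACGTG alone was in 58.8% of the listed genes and 27.5% of the compared genes, and GCGTG was in 55.9% of the listed genes and 51.7% of the compared genes. The base composition was close to that of the compared genes, with a median of 59.7% G and C and 19 CG pairs per window, against 60.0% and 18. All 32851 windows had medians of 52.7% and 7, so the 43.8% comes from windows of unlike composition. The listed genes had 50 windows over 34 genes, and the compared genes 14523 over 11520. More windows per gene leave more places for a match. The matches did not separate the genes by their difference: a core lay in 9 of the 11 genes higher by 1.5-fold that had a window and in 15 of the 19 genes within 1.5-fold.

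Glycolysis begins with glucose uptake and its phosphorylation, and here only 1 of 4 genes moved by 1.5-fold. Slc2a1, which encodes the transporter GLUT1, had a level of 6.28 in the HLF-deficient tumour and 5.44 in the WT tumour, a difference of 0.84 or 1.79-fold. Slc2a2, which encodes the liver transporter GLUT2, was nearly level at 9.70 in the HLF-deficient tumour and 9.64 in the WT tumour. Hk2, the hexokinase many tumours induce, was at 3.92 in the HLF-deficient tumour and 4.12 in the WT tumour, a difference of -0.20. It was thus among the 6 genes with a negative value and not far above the floor.

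The value of Hk1, a hexokinase of most tissues other than hepatocytes, depends on the probe set. The brightest one, used by the rule, was at 10.01 in the HLF-deficient tumour and 9.93 in the WT tumour, a difference of 0.08. It is annotated with 1 accession, and 16 further probe sets name Hk1 together with the ribosomal protein gene Rpl17, at levels of 9.33 to 10.81 in the HLF-deficient tumour and 9.29 to 10.68 in the WT tumour. A second probe set, annotated with 8 accessions, was at 4.46 in the HLF-deficient tumour and 4.0 in the WT tumour, a difference of 0.46. Which transcript the brightest probe set reads was not tested.

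The upper steps, from glucose 6-phosphate to triose phosphates, had the largest glycolytic differences, with a median of 0.73 over 5 genes and 3 of the 5 beyond 1.5-fold. Pfkp, the platelet-type phosphofructokinase, had a level of 5.89 in the HLF-deficient tumour and 4.96 in the WT tumour, which is 1.91-fold higher. Pfkl, the liver-type enzyme of the same step, was at 6.59 in the HLF-deficient tumour and 5.85 in the WT tumour, or 1.66-fold higher. Pfkm, the muscle type, was at 5.31 in the HLF-deficient tumour and 5.15 in the WT tumour, so it differed by 0.16 while its relatives were beyond 1.5-fold. Aldoa, the aldolase of muscle and of most tissues outside liver, was at 8.51 in the HLF-deficient tumour and 7.71 in the WT tumour, a difference of 0.80. Tpi1, triose phosphate isomerase, was at 9.12 in the HLF-deficient tumour and 9.18 in the WT tumour, and its small difference of -0.05 turned to 0.07 when the arrays were centred on their medians. Gpi1, glucose 6-phosphate isomerase, was not analysed here because no probe set used named it.

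The lower steps lay within 1.5-fold in the rows used. Pgk1, phosphoglycerate kinase, was at 8.63 in the HLF-deficient tumour and 8.47 in the WT tumour, and its 3 probe sets all gave a difference of 0.16. Pgam1, phosphoglycerate mutase, was at 8.06 in the HLF-deficient tumour and 7.62 in the WT tumour, a difference of 0.44, with 0.42 in its other probe sets. Pklr, the pyruvate kinase of liver and red cells, had a level of 8.19 in the HLF-deficient tumour and 8.18 in the WT tumour. Pkm, the pyruvate kinase of muscle, embryonic and tumour tissue, was at 6.45 in the HLF-deficient tumour and 6.02 in the WT tumour, a difference of 0.43. A second Pkm probe set was at 6.58 in the HLF-deficient tumour and 5.68 in the WT tumour, a difference of 0.91, so the 2 probe sets disagree on whether Pkm passed 1.5-fold. Neither separates the spliced forms PKM1 and PKM2 in the annotation used here. Gapdh, glyceraldehyde 3-phosphate dehydrogenase, is named only in 25 probe sets that also name other gene models, and these differed by between -0.02 and 0.04. Eno1, an enolase, was not analysed here because no probe set used named it.

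The genes that set the fate of pyruvate stayed close. Ldha, the lactate dehydrogenase subunit that favours lactate formation, was at 10.83 in the HLF-deficient tumour and 10.57 in the WT tumour, a difference of 0.26. Slc16a3, the lactate exporter MCT4, was at 4.37 in the HLF-deficient tumour and 4.28 in the WT tumour. Pdk1, a kinase that inhibits pyruvate dehydrogenase and a HIF target, was at 5.71 in the HLF-deficient tumour and 5.87 in the WT tumour, a difference of -0.16. These 3 genes are HIF targets in many cells, and none of them reached 1.5-fold here.

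Pfkfb3 and Pfkfb4 make or break fructose 2,6-bisphosphate, the activator of phosphofructokinase. Pfkfb3, the form with the strongest kinase activity, had a level of 5.43 in the HLF-deficient tumour and 4.59 in the WT tumour, a difference of 0.84 or 1.79-fold. Pfkfb4 had a level of 2.90 in the HLF-deficient tumour, which is under the floor, and stood at 3.19 in the WT tumour. With the first value set to the floor, its difference was -0.21, within the technical SD of 0.23 per probe set. Compared genes within 0.5 log2 units of its level had a median of -0.20, so no direction is given for Pfkfb4. The liver form Pfkfb1 was not analysed here because no probe set used named it.

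**Figure D2:**
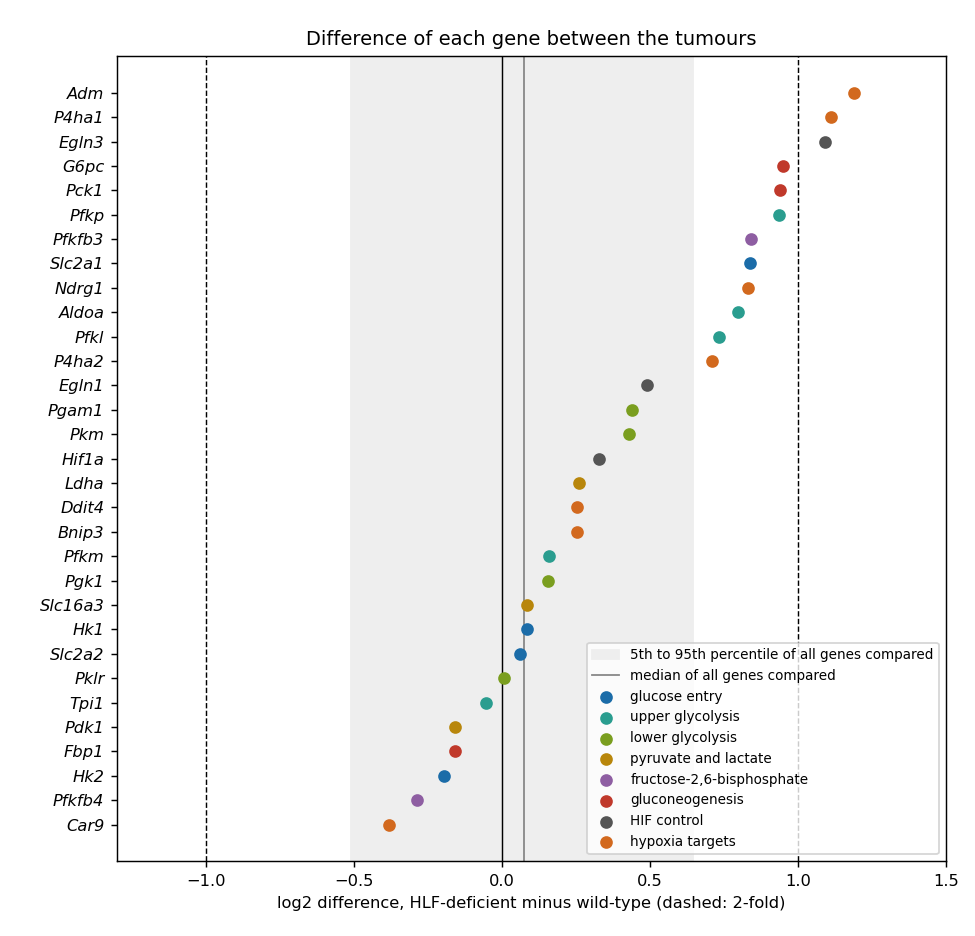
Log2 difference (HLF-deficient minus WT, horizontal axis) of each of the 31 genes, sorted from highest to lowest and coloured by role, with dashed lines at 2-fold and a grey band from the 5th to the 95th percentile of all genes compared (-0.51 to 0.65). The 12 genes beyond 1.5-fold all lie right of the band, 3 of them past the dashed line, and no gene lies left of it.

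The 9 non-liver isozymes, namely Slc2a1, Hk1, Hk2, Pfkp, Pfkm, Aldoa, Pkm, Pfkfb3 and Pfkfb4, had a median of 0.43 with 4 beyond 1.5-fold, and the 3 liver forms Slc2a2, Pfkl and Pklr had a median of 0.06 with 1 beyond 1.5-fold. The non-liver median was 0.80 with the second brightest probe sets of genes that have several, an alternative chosen after the data were seen, since Hk1 and Pkm change. It was 0.67 with probe set means, 0.26 after loess and 0.23 after quantile normalization. For glucose transport, the difference of Slc2a1 exceeded that of Slc2a2 by 0.78, and for pyruvate kinase that of Pkm exceeded that of Pklr by 0.42. For phosphofructokinase, Pfkp exceeded the liver form Pfkl by 0.20 and the difference of Pfkm minus that of Pfkl was -0.58. Pfkl was the 1 liver form beyond 1.5-fold, and it fell short of it after quantile normalization, at 0.54, and after loess, at 0.57, where Pfkp was at 0.81 and 0.82. The small differences of Slc2a2 and Pklr were -0.01 and -0.12 after quantile normalization, so no direction is given for these liver forms.

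**Figure D3:**
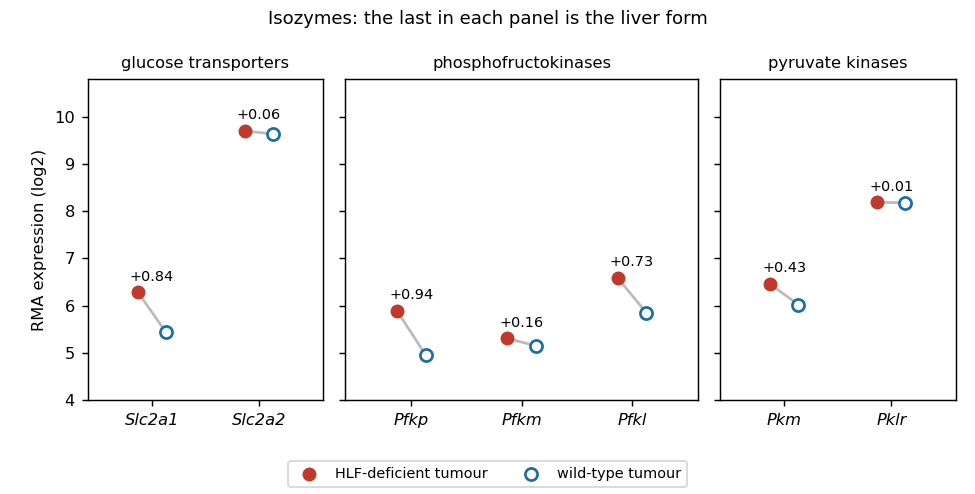
RMA expression level (log2, vertical axis) of glucose transporters, phosphofructokinases and pyruvate kinases in the HLF-deficient tumour (filled red) and the WT tumour (open blue), 1 array each, with the log2 difference printed above each gene. Slc2a1 (0.84) and Pkm (0.43) differ more than their liver forms Slc2a2 (0.06) and Pklr (0.01), while Pfkp (0.94) and the liver form Pfkl (0.73) are both beyond 1.5-fold. Levels of different genes come from different probes and are not compared.

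Of the 3 listed genes of gluconeogenesis, the hepatocyte function that runs against glycolysis, 2 were higher by 1.5-fold and 0 were lower. Pck1, the cytosolic phosphoenolpyruvate carboxykinase and a main control point of the pathway, had a level of 9.16 in the HLF-deficient tumour and 8.22 in the WT tumour, a difference of 0.94 or 1.92-fold. G6pc, the glucose 6-phosphatase that frees glucose for export, was at 8.64 in the HLF-deficient tumour and 7.69 in the WT tumour, a difference of 0.95 or 1.93-fold. Fbp1, fructose 1,6-bisphosphatase, was at 9.50 in the HLF-deficient tumour and 9.66 in the WT tumour, a difference of -0.16. Pck1 and G6pc were thus beyond 1.5-fold and just short of 2-fold, and Fbp1 was not. With the arrays centred on their medians, Pck1 and G6pc were at 1.06 and 1.07, past 2-fold.

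The G6pc promoter is shown because it was the only window of the listed genes that held TTACGTAA, a palindrome that PAR bZIP factors such as HLF bind, and it was chosen after the matches were seen. The window is chr11:101367466-101367765, plus strand (RefSeq, GRCm38.p6), written 5′ to 3′, and capitals mark the palindrome, whose first base lies 162 bases before the start. The palindrome was found in 1 of the 50 windows (2.0%) and in 39 of all 32851 windows (0.119%), and it was sought on both strands, which read alike. It overlaps neither hypoxia core, and no core lay in this window.
G6pc: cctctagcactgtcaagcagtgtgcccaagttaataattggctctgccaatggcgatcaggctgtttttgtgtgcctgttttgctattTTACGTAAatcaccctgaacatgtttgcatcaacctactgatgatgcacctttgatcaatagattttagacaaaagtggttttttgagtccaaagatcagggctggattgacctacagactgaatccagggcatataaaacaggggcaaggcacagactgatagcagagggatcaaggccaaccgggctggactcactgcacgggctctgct

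The other genes of these pathways were taken from 4 further lists, and 59 of the 67 listed were at or above the floor in at least 1 tumour. None of the 59 was higher or lower by 2-fold, where 1.5% and 0.364% of all genes were. By 1.5-fold 7 were higher and 0 lower, where 6.37% and 3.11% of all genes were. Their median was 0.21, between that of the 31 genes and that of all genes.

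Among other hypoxia genes, 5 of 22 were higher by 1.5-fold and 0 were lower, with a median of 0.41. Ccng2, an unconventional cyclin, was at 5.42 in the HLF-deficient tumour and 4.49 in the WT tumour, a difference of 0.94. Edn1, the vasoconstrictor endothelin-1, was at 4.50 in the HLF-deficient tumour and 3.64 in the WT tumour, a difference of 0.86. The other three, named after their values were seen, were Ankrd37 at 0.83, the histone demethylase Kdm3a at 0.81 and the lipid droplet protein Hilpda at 0.68. The lowest values were -0.24 for the transporter gene Slc2a3 and -0.17 for Stc2. Plod2 and Car12 were below the floor in both tumours.

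Among other glycolysis genes, 1 of 13 was higher by 1.5-fold, and the median was 0.07, that of all genes. Hkdc1, a hexokinase-like gene, was at 4.06 in the HLF-deficient tumour and 3.25 in the WT tumour, a difference of 0.81, followed by the aldolase Aldoc at 0.37. The lowest were Slc2a3 and the lactate dehydrogenase gene Ldhb at -0.18, with Slc2a3 at -0.24. Other genes of gluconeogenesis and glycogen had 0 of 15 beyond 1.5-fold and a median of 0.19. Gbe1, the glycogen branching enzyme, and Ppp1r3c, a glycogen-targeting subunit of protein phosphatase 1, were highest at 0.43 and 0.42, and Ppp1r3b and Pgm1 lowest at -0.16 and -0.05. Among genes of pyruvate use and the pentose phosphate path, Pdk4, a kinase of pyruvate dehydrogenase induced by fasting, was the 1 of 10 beyond 1.5-fold, at 6.34 in the HLF-deficient tumour and 5.49 in the WT tumour. Pdk3, whose WT value was under the floor, was at least 1.36-fold higher, and Mpc1, a subunit of the mitochondrial pyruvate carrier, and Dlat were lowest at -0.25 and -0.12.

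Markers of other cell types also differed, and several genes described here, such as Slc2a1, Pfkp, Hk1, Pkm and Adm, are used by cells other than hepatocytes. Of 10 macrophage markers, 2 were higher by 2-fold, Cd14 at 1.86 and Cd68 at 1.53, with no further one beyond 1.5-fold. The Kupffer cell markers Clec4f and Vsig4 were at -0.37 and -0.36, and the other 8 markers were above 0. Among these 8, Marco, Cd163 and Adgre1, which Kupffer cells also express, were at 0.12, 0.26 and 0.57. No direction is therefore given for Kupffer cells. The macrophage median was 0.38, and the summed level on a linear scale was 908 in the HLF-deficient tumour and 629 in the WT tumour. Of 10 endothelial markers, 4 were higher by 1.5-fold and 1 of these, Lyve1 at 1.21, by 2-fold. Clec4g was lower by 1.5-fold at -0.76. Lyve1, Clec4g and Stab2, which was at -0.06, are all markers of sinusoidal endothelium, so no direction is given for it. The 10 endothelial markers had a median of 0.40 and sums of 1025 in the HLF-deficient tumour and 811 in the WT tumour. The 10 stellate cell and fibroblast markers, 3 of them higher by 1.5-fold and 0 lower, had a median of 0.28 and sums of 854 in the HLF-deficient tumour and 717 in the WT tumour. All markers of these 3 lists were above the floor in at least 1 tumour. Their part in the differences of the 31 genes was not tested.

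Most of the remaining marker lists had medians near or below 0. Hepatocyte markers had sums of 31652 in the HLF-deficient tumour and 32160 in the WT tumour. Neutrophil markers had a median of -0.50 over 7 of 10 compared, with Ly6g, Ltf and Cxcr2 below the floor in both tumours, and sums of 91.4 in the HLF-deficient tumour and 118 in the WT tumour. Ngp, Mpo and Elane were under the floor in the HLF-deficient tumour. With those values set to the floor they were lower by only 1.21, 1.39 and 1.14-fold. The neutrophil sums also count values under the floor. Lymphocyte markers had a median of -0.13 over 6 compared, muscle markers -0.18 over 7, bile duct markers -0.12 over 4 and cell cycle genes 0.04 over 7, with none of the cell cycle genes beyond 1.5-fold. The erythroid list had 2 genes compared, with a median of 0.32.

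**Figure D4:**
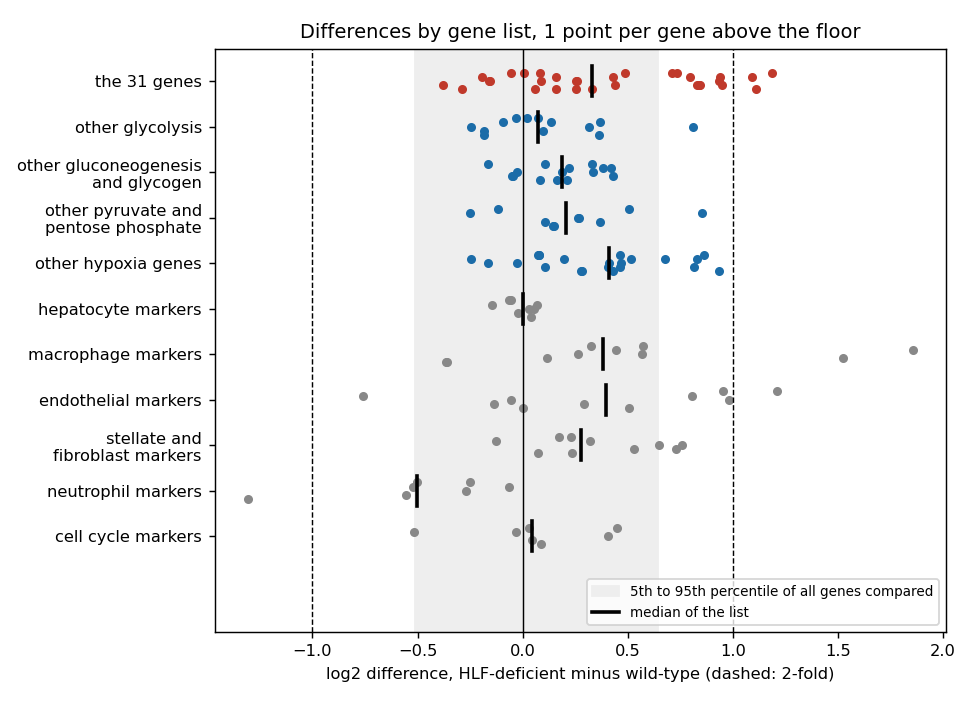
Log2 difference (HLF-deficient minus WT, horizontal axis) of each gene above the floor in at least 1 tumour, for the 31 genes (red), the other genes of the pathways (blue) and markers of cell types (grey), with the median of each list as a black bar and the 5th to 95th percentile of all genes compared as a grey band. The medians were 0.33 for the 31 genes, 0.41 for other hypoxia genes, 0.07 for other glycolysis genes, 0.00 for hepatocyte markers and 0.38 for macrophage markers.

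The differences in these arrays also varied with the level of a gene. Compared genes within 0.5 log2 units of a member's own level had median differences between -0.20, around Car9, and 0.24, around Pkm. Taken relative to this, Adm lay 1.26 above genes of its level, Egln3 1.22, P4ha1 0.97, Pck1 0.82, P4ha2 0.82 and G6pc 0.79. Of the 31 genes, 21 lay above the median of genes of their level and 10 below it, among them Pdk1 at -0.38, Fbp1 at -0.27, Tpi1 at -0.18 and Pklr at -0.15. With a loess trend removed or after quantile normalization, Adm, P4ha1 and Egln3 were still the genes beyond 2-fold, and 11 of 31 were beyond 1.5-fold, all higher, Pfkl having dropped to 0.57 or 0.54.

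**Figure D5:**
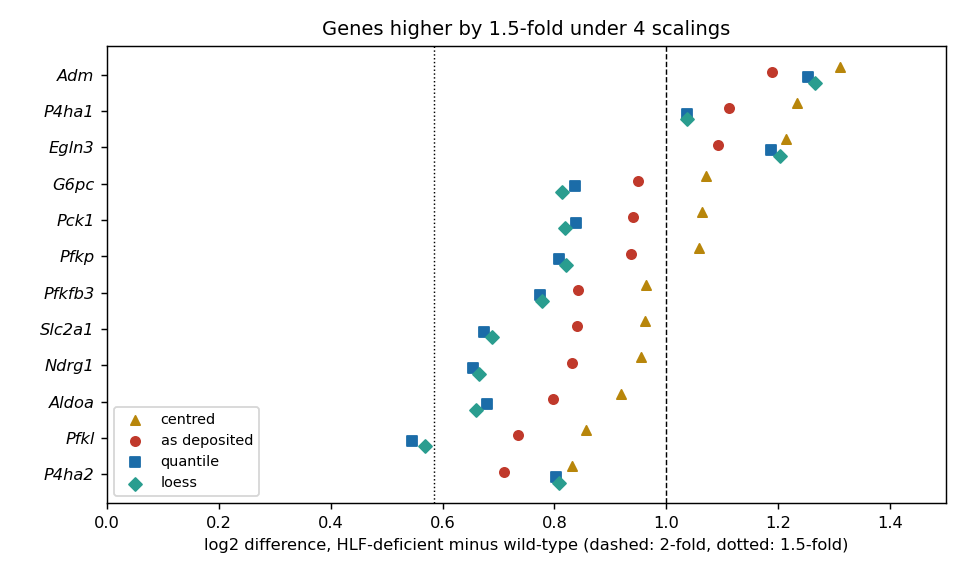
Log2 difference (HLF-deficient minus WT, horizontal axis) of the 12 genes higher by 1.5-fold, as deposited (circles), with each array centred on its median (triangles), after quantile normalization (squares) and with a loess trend removed (diamonds); dashed and dotted lines mark 2-fold and 1.5-fold. Adm, P4ha1 and Egln3 lie past 2-fold under all 4 scalings, Pck1, G6pc and Pfkp only when centred, and Pfkl falls short of 1.5-fold after quantile normalization or loess.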

How the data were processed

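RNA of 1 tumour sample of a DEN-treated HLF-deficient mouse and 1 of a DEN-treated WT mouse was measured on 1 array each. The values deposited by the authors are in log2 units, as read from their range of 0.25 to 12.7. They were made by RMA in Affymetrix Expression Console, per the submitters' processing notes, with no version stated. RMA compresses differences near background. Of 35556 probe sets, 21789 name 1 gene in the platform annotation. The 1621 naming several genes and the 12146 with no gene named here were left out. The probe set with the highest mean of both arrays stood for its gene. The floor was the 95th percentile of 1248 chemoreceptor probe sets over both arrays. Pandas 2.3.3, numpy 2.4.6 and statsmodels 0.14.6 (loess, span 0.4) were used, and the procedure was tested on simulated data. All 31 members are named. Of each list of other genes, the 2 highest and 2 lowest are named. The members and lists were chosen with earlier results of these data known. The alternatives were centring, quantile normalization, loess, probe set means, other floors, values set to the floor, and 1.5-fold. With 1 array per genotype no test was possible.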

Additional observations from a re-analysis of the deposited data

How the results depend on the processing

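No paired analysis was possible because each genotype had 1 array. The count of the 31 genes higher by 2-fold was 3 as deposited and under all alternatives but 2: it was 6 with each array centred on its median, which adds 0.12 to every difference (Pck1, G6pc and Pfkp join), and 12 by the rule of 1.5-fold. The count of other hypoxia genes higher by 2-fold was 1 with the arrays centred (Ccng2) and 5 by 1.5-fold, against 0 as deposited. The count was 1 by 1.5-fold for other glycolysis genes and 1 for pyruvate and pentose phosphate genes. No gene of these lists was lower by the rule under any alternative. Of 144 list medians under the alternatives, 111 had the reported sign and lay within 1.5 times the reported value, and the others follow. With the arrays centred the medians were 0.19 for glucose entry, 0.21 for pyruvate fate, 0.18 for liver isozymes, 0.19 for other glycolysis genes, 0.31 for other gluconeogenesis and glycogen genes and 0.33 for pyruvate and pentose phosphate genes. After quantile normalization they were -0.0045 for glucose entry, 0.15 for lower glycolysis, 0.13 for pyruvate fate, 0.32 for HIF control, -0.0115 for liver isozymes, 0.23 for non-liver isozymes, 0.12 for other gluconeogenesis and glycogen genes and 0.0333 for pyruvate and pentose phosphate genes. After loess they were -0.0167 for glucose entry, 0.15 for lower glycolysis, 0.13 for pyruvate fate, -0.0333 for liver isozymes, 0.26 for non-liver isozymes, 0.0825 for other gluconeogenesis and glycogen genes and 0.0435 for pyruvate and pentose phosphate genes. Glucose entry was at 0.17 and non-liver isozymes at 0.67 with probe set means, and at 0.26 and 0.80 with the second brightest probe set. With the floor at the 99th percentile, Pfkfb3 and Pfkfb4 had 0.84 because Pfkfb4 drops out, and other glycolysis genes 0.14. For all genes compared the median was 0.05 and 0.13 with the floor at the 90th and the 99th percentile and 0.00 without a floor. The median of the 31 genes was 0.45 centred, 0.22 after quantile normalization and 0.23 after loess, beside 0.20, 0.02 and 0.03 for all genes. Slc2a2, Hk1, Tpi1 and Pklr changed sign under at least 1 scaling. Centring also moved the share of all genes lower by 2-fold to 0.22%. Values near the floor (Car9, Pfkfb4, Hk2, and the WT values of Egln3, Adm and P4ha2) are limited by signal over background. The WT values of Egln3 (3.34), Adm (3.53) and P4ha2 (3.63) were above the floor of 2.98. They were under the floor at the 99th percentile, 3.78.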

Other observations

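In the table of promoters, 34 genes had a window with the PAR bZIP palindrome TTACGTAA, and 21 of them were compared between the tumours. This list was drawn up after the G6pc match was seen. The 21 genes had a median difference of 0.16 (HLF-deficient minus WT), beside 0.07 for all genes compared. G6pc was highest of the 21 at 0.95 and the only one higher by 1.5-fold, and Homer2, a scaffold protein gene, was lowest at -0.78 and the only one lower by 1.5-fold. These 2 counts are near the shares over all genes compared, 6.37% higher and 3.11% lower. Among the others, Ak4, an adenylate kinase of mitochondria, was at -0.15, and Ogt, which adds N-acetylglucosamine to proteins, at 0.26.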
